A study of Mus musculus with 14 samples.

Results

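The genes of the core spliceosome and of the SR proteins were followed in mouse hematopoietic progenitor cells (HPCs) that received an N-Myc retrovirus or its empty counterpart. They were taken by a rule on names, which was set with earlier results of these data known. It takes every gene whose symbol on the array platform begins with Snrp, Srsf, Sf3a or Sf3b, or with Lsm and a digit. This rule gave 43 genes, each with 1 probe set, of the 19505 named genes that the arrays measured. The HPCs were lineage-negative bone marrow cells of mice homozygous for a mutant Polg allele (Polg mut/mut, Hom), heterozygous (Polg wt/mut, Het) or wild type (Polg wt/wt, WT). Polg encodes the catalytic subunit of the mitochondrial DNA polymerase. All cells spent 48 h in culture and were then placed on retronectin with virus made by the GP+E86 packaging line, a mouse fibroblast line. The virus was either MSCV-NMyc-IRES-YFP (NMyc), which carries N-Myc with a yellow fluorescent marker, or MSCV-IRES-YFP (Ctrl), which carries the marker alone. Groups were Hom-NMyc, Het-NMyc and WT-NMyc with 2 arrays each, Hom-Ctrl with 2, and Het-Ctrl and WT-Ctrl with 3 each, and the labels call them biological replicates. The viral promoter sets the N-Myc level in this model, so the comparison of vectors is one of forced expression. The labels used here give neither the age nor the strain of the mice.

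The spliceosome removes introns from pre-mRNA. It is built from small nuclear ribonucleoproteins (snRNPs), each a small nuclear RNA in a ring of Sm proteins (the Snrpb, Snrpd, Snrpe, Snrpf and Snrpg products), or of Lsm proteins in the case of U6. U1 marks the start of the intron, and U2, with its SF3a and SF3b complexes, binds the branch point. SR proteins (Srsf genes) bind exons in the pre-mRNA and recruit these particles, and kinases of the SRPK and CLK families control them by phosphorylation. Myc proteins are transcription factors that bind E-box DNA, and genes for RNA processing and ribosome production are among those they are known to raise.

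Sequences upstream of the members were read first, since N-Myc binds DNA at E-boxes. RefSeq promoter windows of assembly GRCm38.p6, which hold 250 bases before the annotated start and 50 after it, were at hand for 36 of the 43 genes (43 windows). The canonical E-box CACGTG, which reads the same on both strands, was present in 2 of the 43 windows (4.65%), both of them windows of Snrpa, against 7.15% of all 32851 windows. The variant CACGCG, searched on both strands (CGCGTG on the other), was present in 14 of the 43 windows (32.6%), against 9.27% of all windows. Counted per gene, 12 of the 36 members (33.3%) held it, against 14.3% of all tested genes with a window. It was also held by 20.4% of the genes in the members' range of array values, and by 24.5% of the genes in that range that rose with NMyc. The share among the members was above each of these shares, and no test of the difference was made. For CACGTG the order was the reverse: 1 of the 36 members (2.78%) held it, against 9.26% of all tested genes with a window. It was held by 12% of the genes in the members' range, and by 14.8% of those in that range that rose. This difference was not tested either. A match describes letters in a window, not a bound site.

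The windows below were picked after the matches were seen and show what a window with and without a match looks like. Sf3a2, Lsm2, Lsm7 and Srsf6 rose at least 2-fold with NMyc and held CACGCG, Snrpa held the canonical motif, and Sf3b3 rose more than Srsf6 and held neither. Sf3a1, which also rose more than Srsf6, likewise held neither. Capitals mark CACGCG or its complement CGCGTG in the first 4 and CACGTG in Snrpa. The windows lie at chr10:80798485-80798784 (+ strand, Sf3a2), chr17:34981880-34982179 (+, Lsm2), chr10:80855107-80855406 (-, Lsm7), chr2:162931258-162931557 (+, Srsf6), chr7:27196222-27196521 (-, Snrpa) and chr8:110846754-110847053 (-, Sf3b3).
Sf3a2: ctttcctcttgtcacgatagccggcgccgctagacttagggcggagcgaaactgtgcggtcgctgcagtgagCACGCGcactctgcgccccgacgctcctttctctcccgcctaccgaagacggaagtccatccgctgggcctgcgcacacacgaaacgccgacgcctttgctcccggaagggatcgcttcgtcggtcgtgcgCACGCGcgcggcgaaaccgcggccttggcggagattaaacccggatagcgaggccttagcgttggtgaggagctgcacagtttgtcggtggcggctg
Lsm2: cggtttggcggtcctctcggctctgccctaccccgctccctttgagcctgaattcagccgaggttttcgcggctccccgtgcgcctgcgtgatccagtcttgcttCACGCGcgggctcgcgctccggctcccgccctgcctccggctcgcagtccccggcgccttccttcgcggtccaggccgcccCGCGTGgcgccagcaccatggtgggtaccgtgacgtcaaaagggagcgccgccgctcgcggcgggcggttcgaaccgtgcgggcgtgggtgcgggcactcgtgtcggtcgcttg
Lsm7: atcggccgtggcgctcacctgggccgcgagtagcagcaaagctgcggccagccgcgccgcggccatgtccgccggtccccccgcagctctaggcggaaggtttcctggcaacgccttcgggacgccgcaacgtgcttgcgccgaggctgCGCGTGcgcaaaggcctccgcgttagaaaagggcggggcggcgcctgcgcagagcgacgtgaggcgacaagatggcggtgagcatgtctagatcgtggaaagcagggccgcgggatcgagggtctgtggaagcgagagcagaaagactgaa
Srsf6: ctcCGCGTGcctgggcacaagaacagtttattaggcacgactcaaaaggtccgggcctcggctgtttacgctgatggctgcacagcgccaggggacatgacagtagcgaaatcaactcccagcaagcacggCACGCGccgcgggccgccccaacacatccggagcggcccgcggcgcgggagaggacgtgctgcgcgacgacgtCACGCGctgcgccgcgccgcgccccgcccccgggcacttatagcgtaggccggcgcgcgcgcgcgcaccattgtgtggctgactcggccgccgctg
Snrpa: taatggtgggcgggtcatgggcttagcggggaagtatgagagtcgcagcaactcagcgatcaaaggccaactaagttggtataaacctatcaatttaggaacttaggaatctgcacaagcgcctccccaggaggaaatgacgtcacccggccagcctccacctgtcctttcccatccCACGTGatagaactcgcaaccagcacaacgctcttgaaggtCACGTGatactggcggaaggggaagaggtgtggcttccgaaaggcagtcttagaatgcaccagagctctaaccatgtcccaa
Sf3b3: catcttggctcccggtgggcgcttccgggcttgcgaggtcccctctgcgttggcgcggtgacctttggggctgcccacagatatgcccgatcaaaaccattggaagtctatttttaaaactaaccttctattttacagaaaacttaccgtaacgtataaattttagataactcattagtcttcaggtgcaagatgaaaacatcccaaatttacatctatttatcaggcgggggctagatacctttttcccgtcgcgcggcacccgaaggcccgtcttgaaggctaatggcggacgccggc
The motif of Sf3a2 began at positions -178 and -47 relative to the start, that of Lsm2 at -145 and -64, and that of Srsf6 at -247, -119 and -46. In Snrpa the canonical motif began at -73 and -32. Among the members with a window, CACGCG was found in 11 of the 26 that rose with NMyc and in 1 of the 10 that were not called, Lsm3.

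Values are log2 expression as deposited, 1 per gene and array. Every rise and fall is one of RNA, since the arrays measure no protein. Mycn, the gene in the vector, read 12.15 to 12.38 in the NMyc arrays and 7.43 to 7.76 in 7 of the 8 Ctrl arrays. The array labelled Hom-Ctrl replicate 1 read 9.77 for Mycn, and several of the results that rest on it are given with and without it below. The gap between positive and negative control sets was 4.04 to 4.52 log2 units in NMyc arrays and 3.60 to 4.17 in Ctrl arrays. This contrast was wider on average in NMyc arrays, with overlapping ranges, and counts are also given with it made equal. Whether it reflects the scale of measurement was not tested. All 7 blood cell and progenitor markers were above the negative controls on all arrays, with Spi1 at 12.77 to 12.92 in NMyc arrays and 12.61 to 13.01 in Ctrl arrays. Of these 7 markers 3 fell with NMyc and 1 rose: Ptprc, a surface marker of blood cells, fell by 1.56 log2 units, and the progenitor markers Cd34 and Kit by 0.97 and 0.30, while Cd48 rose by 0.48. The summed level of 3 fibroblast markers was 7.62 to 7.88 in NMyc arrays and 7.75 to 8.05 in Ctrl arrays, and Klf1, the measured erythroid marker, lay between 6.13 and 6.75 on all 14. The summed T-cell markers ran from 6.78 to 7.21 in NMyc arrays and from 6.93 to 7.25 in Ctrl arrays, and the B-cell markers from 5.95 to 6.52 in NMyc arrays and from 5.92 to 6.36 in Ctrl arrays. Of the endothelial markers, Cdh5 and Kdr were near the negative controls, while Pecam1 read 9.20 to 9.71 in NMyc arrays and 9.98 to 10.67 in Ctrl arrays. The part of these marker differences in the results below was not tested. In such bulk RNA, a change in the mix of cells and a change of RNA per cell cannot be told apart.

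With NMyc, the spliceosome and SR protein genes rose as a broad set. Averaged over the 3 genotypes, 33 of the 43 rose, 0 fell and 10 were not called, at an adjusted p under 0.05 in limma. Over all 22206 tested probe sets, 33.6% were called, 18.2% as risen and 15.5% as fallen. Among the 10269 probe sets whose mean lay in the members' own range (6.44 to 10.9), 32.7% rose and 23.4% fell. The members' median difference was 0.59 log2 units, against -0.02 for all tested sets and 0.04 for those in the range. In 8 members the rise was at least 2-fold: Sf3a2, Lsm2, Lsm7, Sf3b3, Sf3a1, Sf3b4, Srsf6 and Sf3a3. For 31 members (72.1%) every one of the 6 NMyc arrays lay above every one of the 8 Ctrl arrays, against 10.5% of all tested sets, and for 0 members did the NMyc arrays all lie below (6.58% of all). The 2 members that rose with some overlap were Lsm5 and Lsm11.

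When each array was stretched to an equal contrast between its control sets, a setting chosen after the data were seen, 24 members rose and 5 fell, with a median difference of 0.34. Over all tested sets the split was then 13.2% risen and 19.2% fallen, and in the members' range 19.6% and 33.8% with a median of -0.12. The 24 that rose were all among the 33. The 9 that no longer passed were Snrpb, Snrpd2, Sf3b5, Sf3b6, Lsm4, Lsm12, Srsf3, Srsf9 and Srsf11. The 5 that fell under this scaling only were Srsf5 (-0.56), Lsm14a (-0.55), Lsm8 (-0.47), Sf3b1 (-0.44) and Srsf4 (-0.29). Which scaling is nearer to the RNA content of the cells was not tested.

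**Figure D1:**
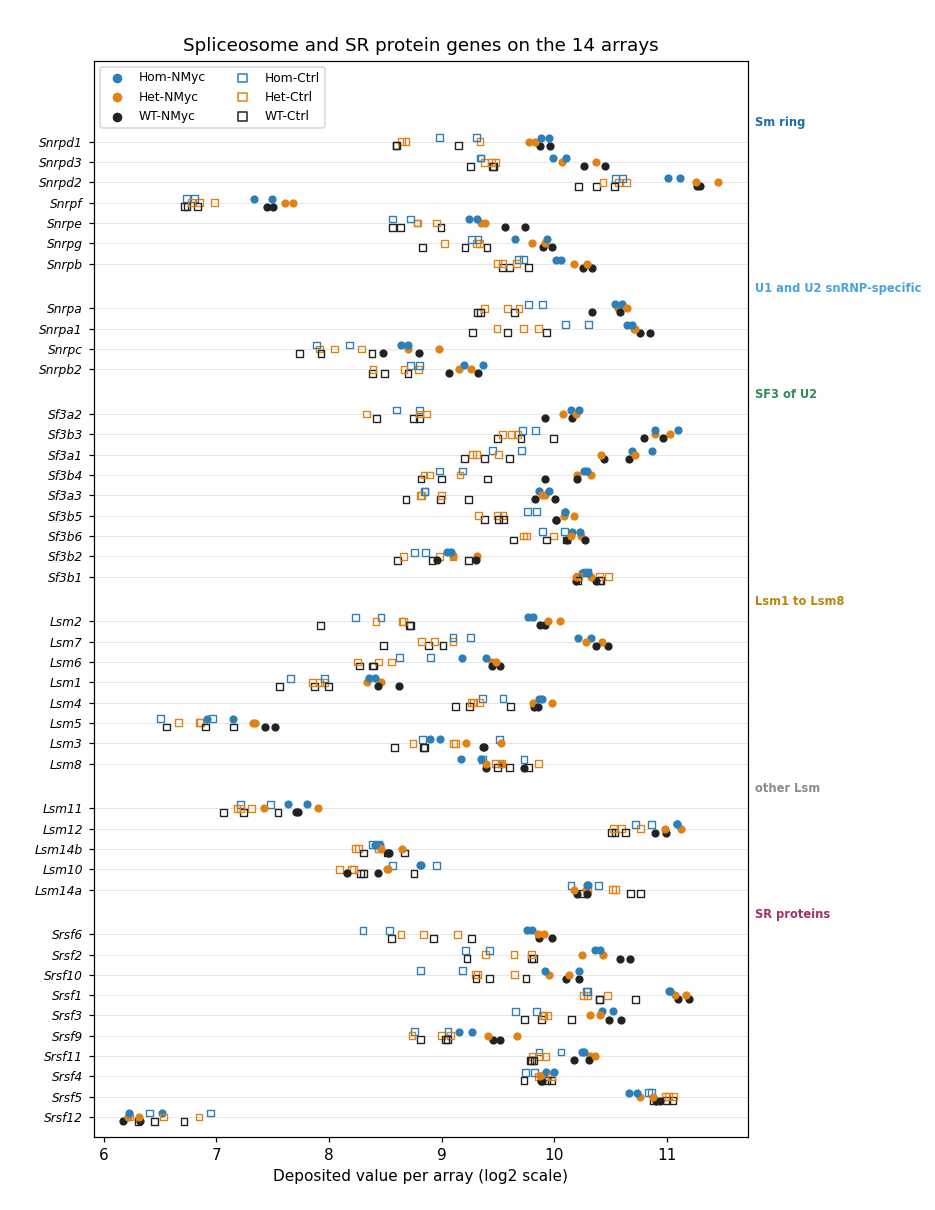
Deposited log2 value (horizontal axis) of each of the 43 genes on each of the 14 arrays, grouped by role. Filled circles are NMyc arrays and open squares Ctrl arrays, coloured by Polg genotype. For 31 genes the 6 circles all lie to the right of the 8 squares, as in all 7 Sm ring genes, while Sf3b1, Srsf4 and Srsf5 show mixed circles and squares.

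**Figure D2:**
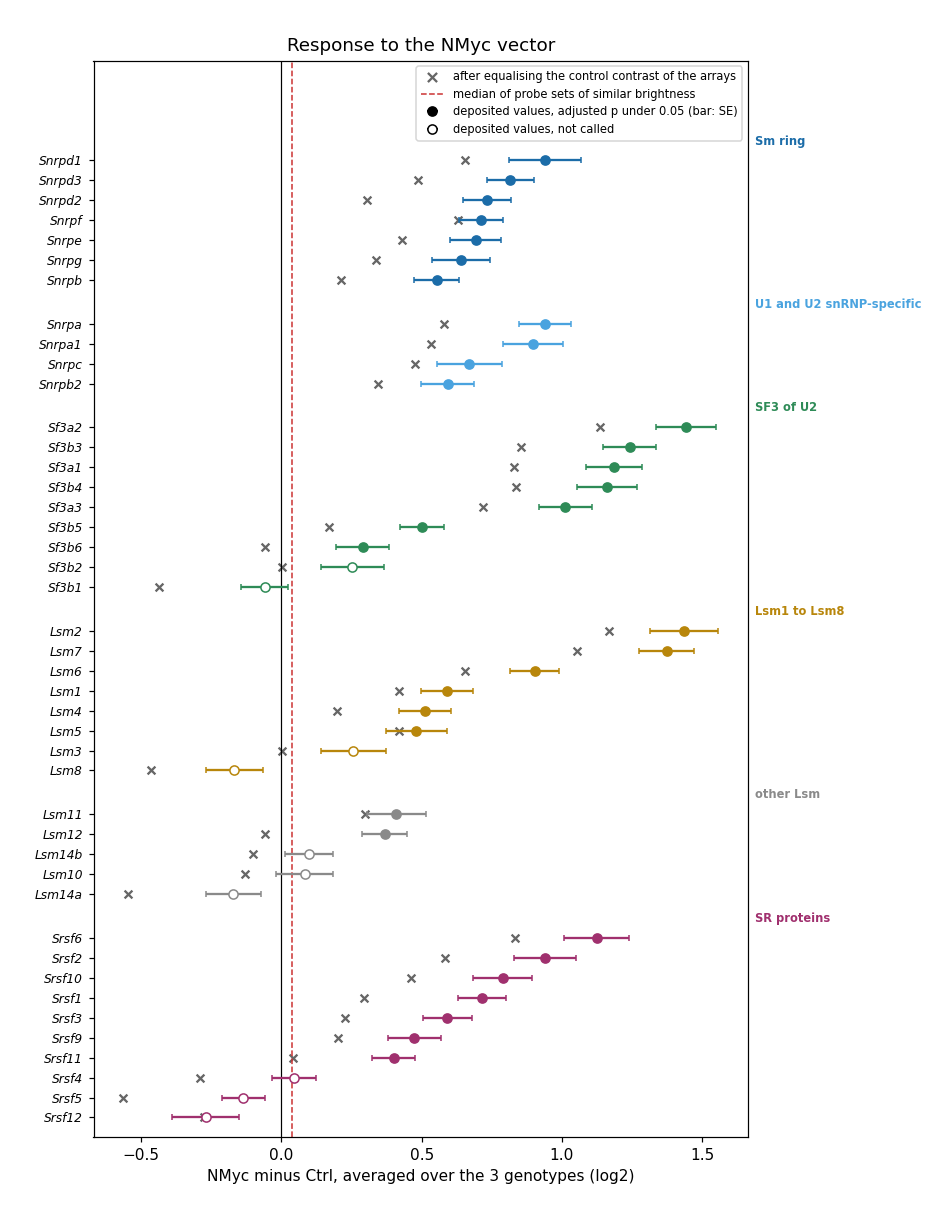
Difference between NMyc and Ctrl averaged over the 3 genotypes (log2, horizontal axis) for each of the 43 genes. Circles with bars give the estimate and its SE from the deposited values, filled where the adjusted p is under 0.05 (33 genes). Crosses give the estimate after the control contrast of the arrays was made equal, and the dashed line is the median of probe sets of similar brightness (0.04). Crosses lie to the left of their circles, and those of Srsf5 and Lsm14a lie farthest below 0.

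The Sm ring is the shared core of the U1, U2, U4 and U5 particles. All 7 of its measured genes rose, by 0.55 to 0.94 log2 units, and in each of them the NMyc and Ctrl arrays did not overlap. Snrpd1 had its lowest, median and highest value at 9.77, 9.87 and 9.96 in NMyc arrays, against 8.60, 8.83 and 9.34 in Ctrl arrays. It rose 1.92-fold (0.94 log2 units, SE 0.13, adjusted p = 2.36e-05). Snrpd3 had values of 9.99, 10.18 and 10.45 in NMyc arrays, against 9.26, 9.41 and 9.48 in Ctrl arrays, a rise of 0.82 (SE 0.08, adjusted p = 1.49e-06). The Ctrl arrays of Snrpd3 lay close together, and those of Snrpd1 spread more widely, with replicate 1 of each genotype highest. Snrpd2, which pairs with the Snrpd1 protein in the ring, had values of 11.01, 11.26 and 11.45 in NMyc arrays, against 10.21, 10.54 and 10.64 in Ctrl arrays (0.73, SE 0.08, adjusted p = 4.40e-06). Snrpf, Snrpe, Snrpg and Snrpb rose by 0.71, 0.69, 0.64 and 0.55. At an equal control contrast, 5 of the 7 rose and 0 fell, with differences of 0.21 (Snrpb) to 0.65 (Snrpd1).

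The 4 genes of proteins specific to U1 or U2 rose as well. Snrpa and Snrpc encode the U1-A and U1-C proteins, and Snrpa1 and Snrpb2 the U2-A' and U2-B'' proteins. Snrpa had values of 10.34, 10.57 and 10.65 (lowest, median, highest) in NMyc arrays, against 9.31, 9.62 and 9.89 in Ctrl arrays, and rose by 0.94 (SE 0.09, adjusted p = 7.53e-07). Snrpa1 had values of 10.64, 10.71 and 10.85 in NMyc arrays, against 9.27, 9.79 and 10.30 in Ctrl arrays, and rose by 0.90 (SE 0.11, adjusted p = 5.66e-06). The NMyc arrays of Snrpa1 lay close together, while the Ctrl arrays ranged widely, with both Hom-Ctrl arrays at the top. Snrpc rose by 0.67 (SE 0.12, adjusted p = 0.000234) and Snrpb2 by 0.59 (SE 0.09, adjusted p = 0.000109). All 4 also rose with the control contrast made equal.

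The SF3a and SF3b complexes of U2 held rises of more than 2-fold and also a difference close to 0. All 3 SF3a genes rose at least 2-fold, and of the 6 SF3b genes 4 rose. Sf3a2 had values of 9.92, 10.16 and 10.22 (lowest, median, highest) in NMyc arrays, against 8.34, 8.78 and 8.87 in Ctrl arrays. It rose 2.72-fold (1.44 log2 units, SE 0.11, adjusted p = 5.11e-08). Sf3b3, a scaffold subunit of SF3b, had values of 10.79, 10.93 and 11.10 in NMyc arrays, against 9.50, 9.69 and 9.99 in Ctrl arrays, and rose 2.36-fold (1.24, SE 0.09, adjusted p = 6.41e-08). Both genes had a wide gap between the lowest NMyc and the highest Ctrl array. Sf3a1 had values of 10.42, 10.68 and 10.87 in NMyc arrays, against 9.20, 9.42 and 9.71 in Ctrl arrays (1.19, SE 0.10, adjusted p = 1.57e-07). Sf3b4 and Sf3a3 rose by 1.16 and 1.01, Sf3b5 by 0.50 and Sf3b6, the subunit next to the branch point adenosine, by 0.29 (SE 0.09, adjusted p = 0.0262).

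Sf3b1, the large SF3b subunit that is often mutated in human myelodysplastic syndromes, had values of 10.19, 10.27 and 10.37 in NMyc arrays, against 10.21, 10.35 and 10.48 in Ctrl arrays. The groups overlapped, and the difference was -0.06 (95% confidence interval -0.24 to 0.12, adjusted p = 0.652). Sf3b2 had values of 8.96, 9.09 and 9.31 in NMyc arrays, against 8.61, 8.88 and 9.24 in Ctrl arrays, a difference of 0.25 that was not called (SE 0.11, adjusted p = 0.103). Within SF3b the differences thus ran from -0.06 to 1.24, and within SF3a from 1.01 to 1.44. Once the control contrast was made equal, 5 of the 9 rose and Sf3b1 fell.

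The Lsm2 to Lsm7 proteins are shared by a pair of rings. With Lsm8 they form the nuclear ring on U6, and with Lsm1 the cytoplasmic ring that promotes removal of the mRNA cap. Of these 8 genes 6 rose. Lsm2 had values of 9.77, 9.90 and 10.05 (lowest, median, highest) in NMyc arrays, against 7.92, 8.56 and 8.73 in Ctrl arrays, and rose 2.71-fold (1.44, SE 0.12, adjusted p = 1.91e-07). Lsm7 had values of 10.21, 10.35 and 10.47 in NMyc arrays, against 8.48, 8.97 and 9.26 in Ctrl arrays, and rose 2.59-fold (1.37, SE 0.10, adjusted p = 3.70e-08). In both, the lowest NMyc array stood far above the highest Ctrl array. Lsm6 had values of 9.18, 9.45 and 9.51 in NMyc arrays, against 8.25, 8.42 and 8.90 in Ctrl arrays (0.90, SE 0.09, adjusted p = 6.48e-07). Lsm4 rose by 0.51 and Lsm5 by 0.48. Lsm3 did not pass (0.26, SE 0.12, adjusted p = 0.109), with values of 8.90, 9.29 and 9.53 in NMyc arrays, against 8.58, 8.85 and 9.52 in Ctrl arrays. The Ctrl array with 9.52 was the array labelled Hom-Ctrl replicate 1, and without it Lsm3 rose by 0.37 (adjusted p = 0.0135).

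Of the subunits that set the 2 rings apart, Lsm1 rose and Lsm8 was not called. Lsm1 had values of 8.34, 8.42 and 8.62 in NMyc arrays, against 7.56, 7.89 and 8.0 in Ctrl arrays, and rose by 0.59 (SE 0.09, adjusted p = 9.66e-05). Lsm8 had values of 9.17, 9.40 and 9.73 in NMyc arrays, against 9.36, 9.57 and 9.86 in Ctrl arrays, a difference of -0.17 that was not called (SE 0.10, adjusted p = 0.244). The 6 NMyc arrays of Lsm1 stood clear of the Ctrl arrays, while those of Lsm8 were mixed with them. Within each array, Lsm1 minus Lsm8 was -1.30 to -0.77 in NMyc arrays and -2.07 to -1.40 in Ctrl arrays. This difference of probe values was greater with NMyc by 0.76, which is given as a description because the pair was picked after its values were seen. At an equal control contrast the shift was 0.89, 5 of the 8 genes rose and Lsm8 fell. Values of different probe sets are not levels on a common scale, so no ratio of the 2 rings follows from them.

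The remaining Lsm genes have roles outside U6. Lsm10 and Lsm11 belong to the U7 snRNP, which trims histone mRNA, and Lsm14a and Lsm14b to cytoplasmic granules of repressed mRNA. Of these 5 genes, 2 rose. Lsm11 had values of 7.42, 7.72 and 7.90 in NMyc arrays, against 7.06, 7.23 and 7.55 in Ctrl arrays (0.41, SE 0.10, adjusted p = 0.00552). Its partner Lsm10 had values of 8.16, 8.52 and 8.82 in NMyc arrays, against 8.09, 8.30 and 8.96 in Ctrl arrays, with a difference of 0.08 (SE 0.10, adjusted p = 0.602). Lsm10 varied more between arrays of the same vector than between vectors. Lsm12 had values of 10.89, 11.04 and 11.13 in NMyc arrays, against 10.51, 10.61 and 10.86 in Ctrl arrays, and rose by 0.37 (SE 0.08, adjusted p = 0.00170). Lsm14b differed by 0.10 (SE 0.09, adjusted p = 0.446) and Lsm14a by -0.17 (SE 0.10, adjusted p = 0.212), both with overlapping arrays. Under equal control contrast, Lsm11 alone of these 5 rose and Lsm14a fell.

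Among the SR protein genes, 7 of 10 rose. Srsf6 had values of 9.76, 9.86 and 9.98 (lowest, median, highest) in NMyc arrays, against 8.30, 8.74 and 9.27 in Ctrl arrays, and rose 2.18-fold (1.12, SE 0.12, adjusted p = 1.32e-06). Srsf2, which is mutated in some human myeloid neoplasms, had values of 10.25, 10.42 and 10.68 in NMyc arrays, against 9.21, 9.53 and 9.81 in Ctrl arrays, and rose by 0.94 (SE 0.11, adjusted p = 5.07e-06). Srsf10, known as a splicing repressor when dephosphorylated, had values of 9.92, 10.12 and 10.22 in NMyc arrays, against 8.81, 9.31 and 9.75 in Ctrl arrays (0.79, SE 0.11, adjusted p = 2.31e-05). In these 3 genes the NMyc arrays lay closer to each other than the Ctrl arrays did, and the groups did not overlap. Srsf1, the founding member with a known oncogenic role, rose by 0.72, Srsf3 by 0.59, Srsf9 by 0.47 and Srsf11 by 0.40.

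The other 3 SR genes did not pass. Srsf5 had values of 10.66, 10.82 and 10.93 in NMyc arrays, against 10.83, 10.99 and 11.05 in Ctrl arrays (-0.14, 95% confidence interval -0.30 to 0.03, adjusted p = 0.20). Srsf4 had medians of 9.89 with both vectors (0.04, 95% confidence interval -0.12 to 0.21, adjusted p = 0.726). Srsf12 had the lowest values of all members, with 6.17, 6.27 and 6.52 in NMyc arrays, against 6.23, 6.49 and 6.95 in Ctrl arrays (-0.27, SE 0.12, adjusted p = 0.101). Srsf4, Srsf5 and Srsf6 encode closely related proteins, yet their differences ran from -0.14 to 1.12. When the control contrast was equal, 4 SR genes rose (Srsf6, Srsf2, Srsf10 and Srsf1) and Srsf4 and Srsf5 fell. Many SR genes make an alternative mRNA with a poison exon that is degraded, and a gene-level array value cannot tell it from the productive form.

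Within each genotype the picture was much the same, with fewer calls in Hom cells. The Hom comparison had 2 Ctrl arrays, and the Het and WT comparisons had 3 each. It was thus the least precise, and the counts are not on an equal footing. In Hom cells 20 members rose (10.7% of all tested sets rose and 7.01% fell, 17.7% in all). In Het cells 31 rose (11.1% rose, 8% fell, 19.1% in all), and in WT cells 31 rose (10.1% rose, 9.05% fell, 19.1% in all). No member fell in any of the 3, where limma at an unadjusted p under 0.05 gave 26, 33 and 33 members in Hom, Het and WT. Unadjusted counts, here and below, stand without a share of all tested sets, which was not counted at that level. Such counts are therefore no result about the members as a set. The members' median difference was 0.50 in Hom, 0.62 in Het and 0.66 in WT cells. A set of 20 members rose in all 3 genotypes and 11 rose in none. Of the Sm ring, 5 of 7 passed in Hom cells and 7 of 7 in both Het and WT cells. Of the U1 and U2 protein genes, Snrpa alone passed in Hom cells, against all 4 in Het and in WT cells. The SF3 genes passed in 5, 6 and 6 of 9 cases, and the SR genes in 5, 7 and 7 of 10 cases, in Hom, Het and WT cells.

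The array labelled Hom-Ctrl replicate 1 bears on the Hom counts, and without it 14 members rose in Hom cells. It was 13 without Hom-NMyc replicate 2. In Het cells it was 18 without Het-NMyc replicate 1. With the control contrast made equal, 9 members rose and 0 fell in Hom, 12 rose and 2 fell in Het, and 17 rose and 1 fell in WT cells. Among the probe sets in the members' range of array values, 8.34% rose and 13.2% fell in Hom at that setting. In Het cells these shares were 10.4% and 18.4%, and in WT cells 10.3% and 18.8%. Of the 43 members, 18 (41.9%) had a higher value in Hom-Ctrl replicate 1 than in replicate 2, against 50.9% of all tested sets and 35.2% of the sets that rose with NMyc. The median difference between these arrays was -0.04 over the members. Most members were thus not higher in that array than in replicate 2, which belongs to another run of sample codes. Whether the raised Mycn value of Hom-Ctrl replicate 1 bears on the members was not tested.

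**Figure D3:**
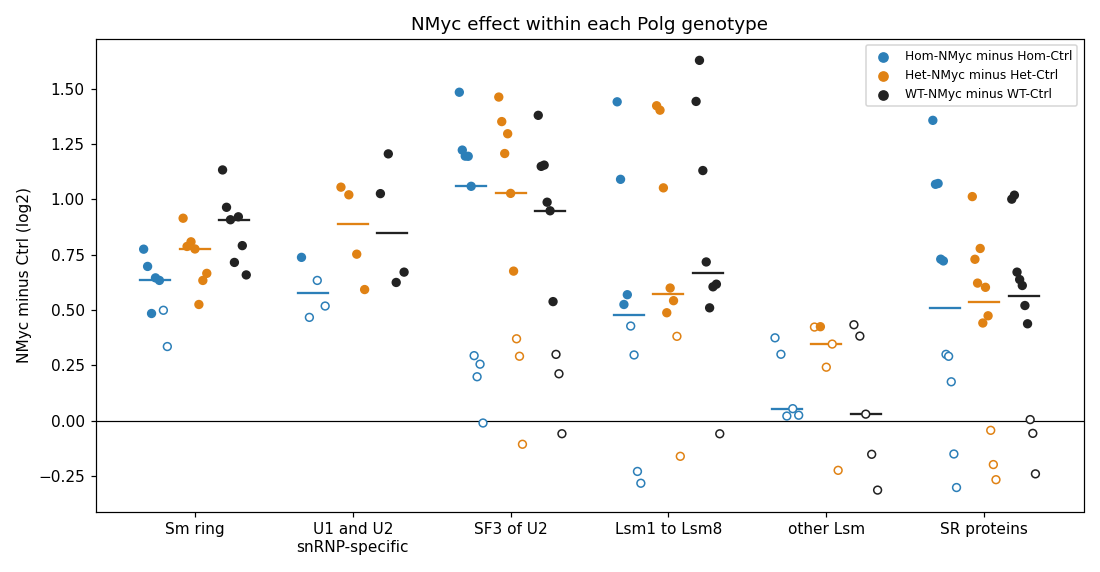
Difference between NMyc and Ctrl (log2, vertical axis) within each Polg genotype for the members of each role, with Hom to the left, Het in the middle and WT to the right. Points are genes, filled where the adjusted p is under 0.05 and open otherwise, and bars are the medians. In the Sm ring the medians are 0.63 in Hom, 0.78 in Het and 0.91 in WT cells, and in SF3 they are 1.06, 1.03 and 0.95.

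The difference in effect between genotypes was tested directly, and limma called 0 members in any of the 3 comparisons. Hom minus WT gave 4 members at an unadjusted p under 0.05, Hom minus Het 1 and Het minus WT 0. Over all tested sets, Hom minus WT called 0.0811% (0.0721% greater and 0.00901% smaller in Hom), Hom minus Het 0.0315% (0.0225% and 0.00901%), and Het minus WT 0%. By sign, all 7 Sm ring genes and all 8 of Lsm1 to Lsm8 had a smaller estimate in Hom than in WT cells, with medians of -0.29 and -0.27, while 7 of the 9 SF3 genes had a greater one. These genes share their arrays, so their common sign is a description. The member with the greatest gap was Lsm3, with an effect of -0.23 in Hom cells and 0.62 in WT cells (difference -0.85, SE 0.29, adjusted p = 0.374). Snrpa1 followed with 0.47 in Hom and 1.21 in WT cells (-0.74, SE 0.26, adjusted p = 0.406), then Lsm6 with 0.52 and 1.13 (-0.61, SE 0.22, adjusted p = 0.402) and Lsm7 with 1.09 and 1.63 (-0.54, SE 0.24, adjusted p = 0.561). Without the array labelled Hom-Ctrl replicate 1 the gap of Lsm3 was -0.50 and that of Snrpa1 -0.64, and Lsm2 turned positive (0.11), the only change of sign in the Sm ring and Lsm1 to Lsm8.

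The Polg genotype by itself gave 0 called members in each of the 6 comparisons in limma. In Ctrl cells, Hom minus WT called 3.91% of all tested sets (2.03% higher and 1.88% lower in Hom), and 8 members had an unadjusted p under 0.05. Hom minus Het called 2.4% (1.34% higher, 1.06% lower), with 6 members under 0.05, and Het minus WT called 0%, with 0 members. In NMyc cells each of the 3 comparisons called 0% of all tested sets. Hom minus WT there had 3 members under 0.05, Lsm10 (0.52), Lsm5 (-0.44) and Snrpe (-0.37), and the other comparisons had 0.

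In Ctrl cells the nearest to a call was Snrpa1, with 10.30 and 10.10 in Hom-Ctrl, against 9.86, 9.72 and 9.49 in Het-Ctrl and 9.93, 9.27 and 9.59 in WT-Ctrl. Both Hom arrays stood above all 6 others. The difference from WT was 0.60 (SE 0.18, adjusted p = 0.0774), and it was 0.37 among arrays of replicate 1 and 0.82 among those of replicate 2. Snrpa1 passed without WT-Ctrl replicate 1 (0.77, adjusted p = 0.0199), and the difference was 0.50 without the array labelled Hom-Ctrl replicate 1 (adjusted p = 0.297). Lsm10 had 8.56 and 8.96 in Hom-Ctrl, against 8.09, 8.22 and 8.20 in Het-Ctrl (0.59, SE 0.17, adjusted p = 0.0897), and passed when WT-Ctrl replicate 3 was left out of the fit (adjusted p = 0.0495). Its WT-Ctrl values of 8.28, 8.31 and 8.76 overlapped those of Hom-Ctrl.

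Of the SR genes, 8 of 10 were lower in Hom-Ctrl than in WT-Ctrl, none of them called. Their median was -0.15, against -0.0012 over all tested sets. These genes share their arrays, and the signs were not the same in each replicate. Between the arrays of replicate 1, Srsf9 was higher in Hom-Ctrl (0.24), and between those of replicate 2, Srsf3 (0.11) and Srsf4 (0.09) were. Srsf6 had 8.30 and 8.54 in Hom-Ctrl, against 8.64, 8.84 and 9.14 in Het-Ctrl and 8.56, 8.93 and 9.27 in WT-Ctrl (Hom minus WT -0.50, SE 0.19, adjusted p = 0.188). Srsf10 had 8.81 and 9.18 in Hom-Ctrl, against 9.30, 9.32 and 9.65 in Het-Ctrl and 9.42, 9.30 and 9.75 in WT-Ctrl (Hom minus WT -0.49, SE 0.18, adjusted p = 0.154). In both genes the Hom arrays were lowest, and the arrays within each group were also well apart. Without the array labelled Hom-Ctrl replicate 1 the differences were -0.38 and -0.31. Among the NMyc arrays Srsf6 lay within a narrow span, with 9.80 and 9.76 in Hom-NMyc, 9.91 and 9.86 in Het-NMyc and 9.86 and 9.98 in WT-NMyc. Lsm6, Snrpa, Lsm3, Lsm7 and Sf3b5 were higher in Hom-Ctrl than in WT-Ctrl at an unadjusted p under 0.05, by 0.41, 0.40, 0.41, 0.39 and 0.32, and none passed after adjustment. Between the arrays of replicate 2 alone, the differences were 0.35, 0.55, 0.25, 0.09 and 0.29. For Lsm3 the Hom-Ctrl replicate 2 value of 8.83 lay within the WT-Ctrl values, which ran from 8.58 to 8.85.

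**Figure D4:**
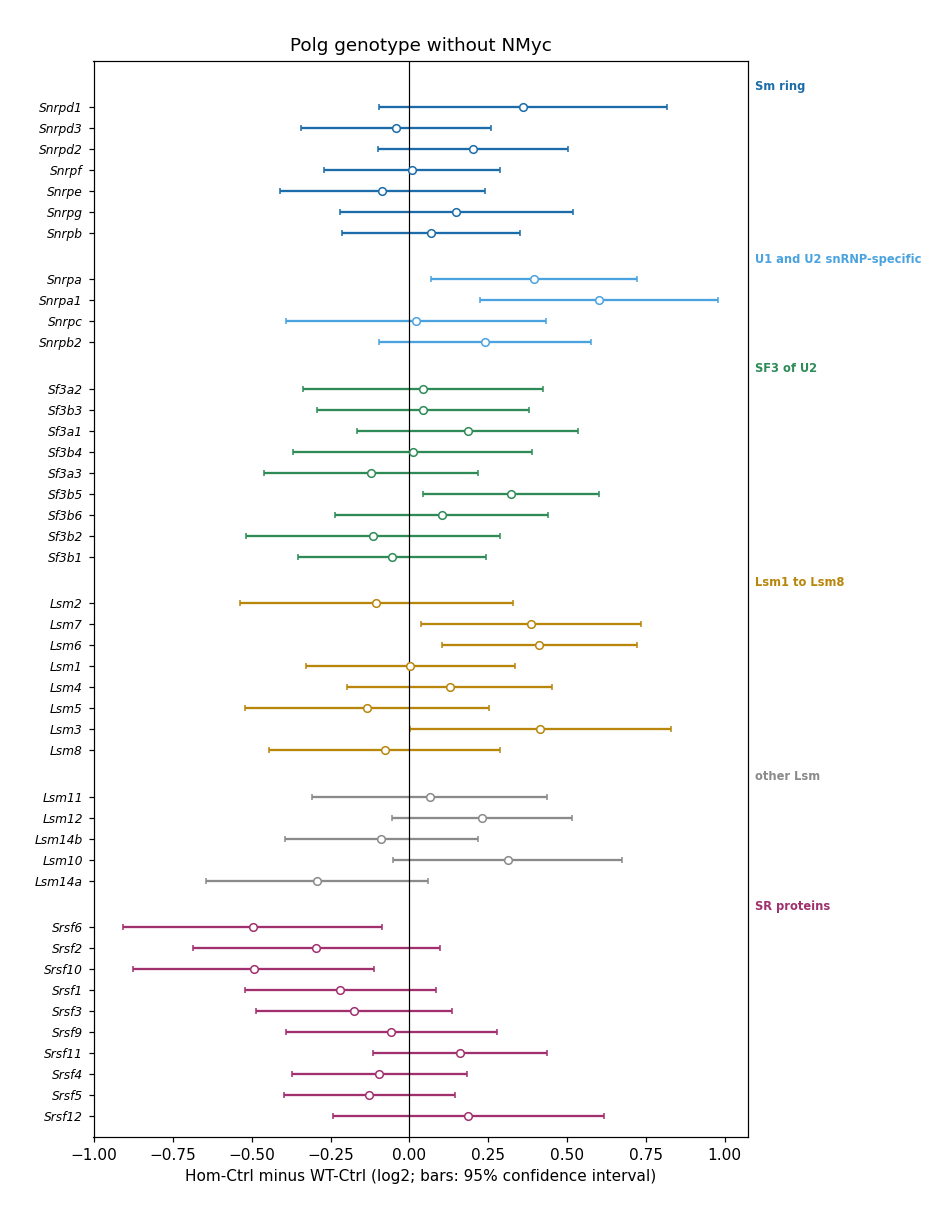
Difference between Hom-Ctrl and WT-Ctrl (log2, horizontal axis) for each of the 43 genes with its 95% confidence interval, grouped by role. All circles are open because no member was called. Snrpa1 lies farthest to the right (0.60) and Srsf6 farthest to the left (-0.50), and 8 of the 10 SR protein genes lie left of 0.

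Other genes of the splicing pathway were read from lists picked by function, with earlier results of these data known. Of 124 measured genes, 78 (62.9%) rose with NMyc on average and 9 (7.26%) fell, against 18.2% and 15.5% of all tested sets. Their median difference was 0.37. With the control contrast made equal 38 rose and 19 fell, against 13.2% and 19.2% of all tested sets. The counts per list, here and below, are to be read beside these shares, and a count near them is no result about the list. Among U2-associated factors 10 of 11 rose, among them U2af2, which reads the polypyrimidine tract (0.84, SE 0.09, adjusted p = 1.48e-06), the helicase Ddx46 (0.80) and U2surp (0.72). Of the U4/U6 and U5 protein genes 13 of 18 rose, led by Eftud2, the GTPase of U5 (1.60, SE 0.13, adjusted p = 1.75e-07), Snu13 (1.17) and Ppih (1.05). Like the SF3a genes, these parts of the particles included rises of more than 2-fold. At an equal control contrast 6 of the 11 and 12 of the 18 rose and 0 fell. Of the Prp19 complex and catalytic step 13 of 21 rose, with the ubiquitin ligase Prpf19 at 1.54, Dhx16 at 0.73 and Aqr at 0.72, and Syf2 fell by 0.28, but with the contrast made equal 4 of the 21 rose and 3 fell. Of the exon junction complex 4 of 5 rose (Eif4a3 by 0.76, Rnps1 by 0.73 and Rbm8a by 0.44), and of the minor spliceosome 4 of 7 (Zmat5 by 0.80, Snrnp25 by 0.41 and Zcrb1 by 0.26). With the contrast made equal, 2 of 5 exon junction genes rose, without Rbm8a, and of the minor spliceosome 1 rose (Zmat5) and 1 fell (Snrnp48). At that setting the counts of the Prp19 list and of the minor spliceosome lay near the shares of all tested sets. They are thus no result about these lists. Of the 4 U1-associated genes Snrnp70 rose by 0.26 and Luc7l2 fell by 0.53, and the fall alone was called at equal contrast.

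Of 14 genes of the machinery that loads Sm rings onto snRNA, 11 rose, among them Gemin5, which recognises snRNA (1.40, SE 0.12, adjusted p = 3.09e-07), Wdr77 of the methylosome (1.28, SE 0.10, adjusted p = 7.17e-08) and Smn1 (1.10, SE 0.11, adjusted p = 6.31e-07). Snupn, the nuclear import adaptor of snRNPs, fell by 0.38 (adjusted p = 0.0446). Within genotypes, 0 genes of this list were called as fallen in WT cells, 0 in Het and 1 in Hom cells. The average includes the Hom-Ctrl arrays, in which Snupn was higher than in WT-Ctrl (given below). With the control contrast made equal, 9 of these 14 rose and 1 fell. Of the hnRNP genes 14 of 22 rose and 0 fell, with the smallest p in Ptbp1 (1.22), Hnrnpr (0.72) and Hnrnpab (0.80). With the contrast made equal, however, 3 rose and 5 fell, near the 13.2% and 19.2% of all tested sets. Those counts are thus no result about the hnRNP genes.

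Of the genes for kinases of SR proteins 1 rose and 4 fell. Srpk1, a cytoplasmic kinase that loads phosphates onto SR proteins, had values of 10.96 to 11.27 in NMyc arrays, against 10.21 to 10.65 in Ctrl arrays, and rose by 0.66 (SE 0.09, adjusted p = 2.46e-05). The nuclear kinase Clk1 had values of 8.25 to 9.01 in NMyc arrays, against 9.26 to 9.83 in Ctrl arrays, and fell by 0.88 (SE 0.13, adjusted p = 4.75e-05). Clk3 fell by 0.57, Srpk2 by 0.56 and Clk4 by 0.39, while Clk2 differed by -0.18 and was not called (adjusted p = 0.122). Of the 15 genes of SR-related proteins and kinases 5 rose and 4 fell. With the contrast made equal 0 of these 15 genes rose and 6 fell: the 4 falls remained called, none of the 5 rises did (Srpk1 0.23, adjusted p = 0.194), and Clk2 (-0.37, adjusted p = 0.0156) and Son (-0.37, adjusted p = 0.0154) were called as falls. Of the partners of Lsm1 in mRNA decapping 3 of 7 rose, Patl1 by 0.57 and Dcp1a by 0.83 among them, while the helicase Ddx6 fell by 0.43 and the exonuclease Xrn1 by 0.26, and at equal contrast 1 rose (Dcp1a) and the same 2 fell.

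By genotype, limma called 3 of the 124 pathway genes (2.42%) higher in Hom-Ctrl than in WT-Ctrl, a share close to the 2.03% of all tested sets, so the count is no result about the pathway. The 3 were Snupn, higher by 1.02 (adjusted p = 0.0247), Prpf38a by 0.95 (adjusted p = 0.0439) and Clk3 by 0.65 (adjusted p = 0.0217). Clk3 was also higher than in Het-Ctrl by 0.61 (adjusted p = 0.0387). Both comparisons share the 2 Hom-Ctrl arrays. Without the array labelled Hom-Ctrl replicate 1, Clk3 stayed called against WT-Ctrl (0.75, adjusted p = 0.0390), while Snupn (1.01, adjusted p = 0.098) and Prpf38a (0.87, adjusted p = 0.182) did not, nor did Clk3 against Het-Ctrl (0.71, adjusted p = 0.0630).

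**Figure D5:**
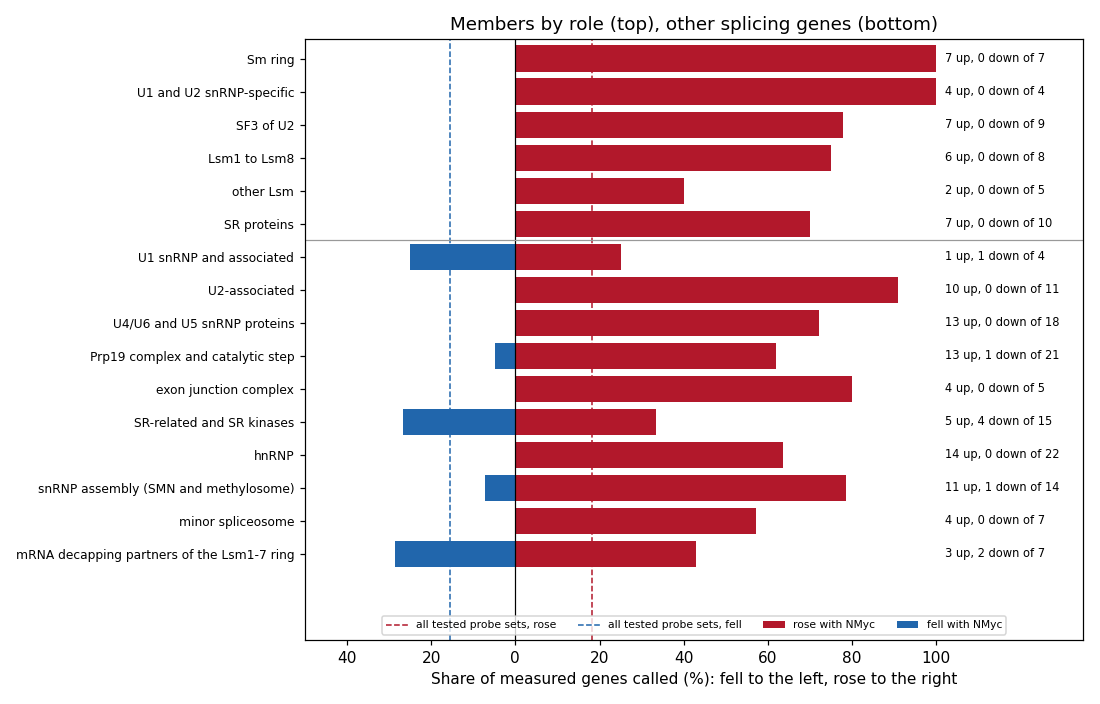
Share of measured genes called for the averaged NMyc effect, with rises to the right and falls to the left of 0 (percent, horizontal axis), for the 6 roles of the members (above the line) and 10 lists of other splicing genes (below it). Dashed lines mark the shares over all tested probe sets (18.2% risen, 15.5% fallen). The Sm ring genes and the U1 and U2 protein genes reach 100%, and the list with SR kinases has 5 rises and 4 falls among 15 genes (0 and 6 with the control contrast made equal).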

How the data were processed

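Each deposited value is a log2 expression level of 1 probe set, computed by the authors in Expression Console (Affymetrix), per the submitters' processing notes, from RNA labelled with the GeneChip WT PLUS kit, per the labels' protocols. Which version, summary method and normalization they used is not given in the sources used here, and a log2 scale fits the values (2.24 to 13.5). No scaling was added. Leaving out 6640 control sets left 22206 probe sets on 14 arrays, fitted in limma 3.58.1 (R 4.3.3) as 6 group means with empirical Bayes moderation. For each of 13 differences, p-values were adjusted by the Benjamini-Hochberg method over all tested sets, with calls at an adjusted p under 0.05. The procedure was also run on simulated data whose noise was independent between arrays. Such noise leaves out any deviation that arrays share, so that run cannot show how the calls hold under it. The number of arrays limits the precision, and the p-values cover the spread between these arrays only.

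Named in full are up to 3 members per role with the largest called change, all members not called, and up to 3 genes per pathway list with the smallest p, with those that fell. A few further genes were named after their values were seen. Members and lists were chosen with earlier results of these data known. Chromosome positions are given only for the promoter windows, since the array's build is not named. Sample codes in the labels form 3 runs, which the labels do not call batches. Run 1 holds Ctrl arrays only and run 3 no Hom-Ctrl array, so vector and run are partly confounded. Replicate 1 of NMyc lies in run 2 with replicate 2 of Ctrl. A block by replicate number therefore joins NMyc and Ctrl arrays of different runs. All 33 members that rose were positive in each of 5 within-run differences. These use the same arrays as the calls, and for the 31 risen members without overlap the outcome was fixed, so it adds no support. Same-numbered WT-Ctrl and Het-Ctrl arrays deviated together (r of 0.235 to 0.266 over all tested probe sets); other groups share at most 2 numbers.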

Additional observations from a re-analysis of the deposited data

How the results depend on the processing

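The averaged NMyc count of 33 stayed at 32 to 34 when any array was left out, and 32 of the 33 rises kept their call under all 24 alternatives planned. The exception was Sf3b6, not called after quantile normalization or without any of 4 arrays. Leaving out arrays gave 13 to 22 called members in Hom, 18 to 31 in Het and 21 to 31 in WT cells, and 0 to 1 for Hom-Ctrl minus WT-Ctrl and for Hom-Ctrl minus Het-Ctrl. An intensity trend with a robust prior called 1 member in each of these 2 genotype comparisons, Snrpa1 and Lsm10. With the replicate block, 35 members were called on average (34 rose, Sf3b2 added at 0.34; Srsf12 fell by 0.28); within genotypes the block called 23 (Hom), 30 (Het) and 31 (WT); the block changed no other count, and Het-Ctrl minus WT-Ctrl, the paired one, stayed at 0. Stretching the arrays to an equal control contrast gave 9 called members in Hom, 14 in Het and 18 in WT cells. Estimates that changed sign were those of Lsm10 (-0.0043 by quantile normalization, -0.013 with the code run as a block, -0.0241 in code runs 2 and 3 only, -0.13 stretched), Srsf4 (-0.0414 by quantile normalization, -0.29 stretched, a called fall), and, when stretched, of Lsm14b (-0.10) and of Lsm12 (-0.0597) and Sf3b6 (-0.0588), which had been called as risen. By construction stretching lowers bright sets in arrays of wide contrast, and for the other changes the cause was not tested. Groups of 2 or 3 arrays limit every comparison within a genotype.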
